A study of Drosophila melanogaster with 8 samples.

Results

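Atg4a, Ubi-p63E and ClpP are 3 genes of protein breakdown, taken from the 6793 genes that the spots of a Drosophila head array named. They were chosen by name after their ratios on these same arrays had been seen: treated over control, Atg4a stood high at day 10, and Ubi-p63E and ClpP stood low at both times. Each gene had 2 neighbouring duplicate spots, which gives 6 of the 27648 spots. Because the ratios chose the genes, they are given here as a description, and no p-value is attached to them.

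The 3 genes act in separate routes of protein turnover. Atg4a encodes a cysteine protease of autophagy, the route by which cell contents are wrapped in a double membrane and sent to the lysosome; it trims Atg8 so that Atg8 can be joined to the membrane lipid, and it can free Atg8 again. Ubi-p63E encodes polyubiquitin, a chain of identical ubiquitin units that is cut into single ubiquitins; these mark proteins for the proteasome and for other fates, and in flies this gene is a stress-inducible source of ubiquitin. ClpP encodes the proteolytic subunit of a protease in the mitochondrial matrix, where it works with the unfolding ATPase ClpX.

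The RNA came from heads of unmated males of the wild-type strain Oregon R. Males 3 to 4 days old ate food with pentylenetetrazole (PTZ), a convulsant that blocks GABA-A receptors, for 7 days. They were then given sodium valproate (NaVP), an antiepileptic and histone deacetylase inhibitor, for 3 days. The first of the 2 groups below went back to normal food for 4 further days before its heads were taken on day 14 (4 arrays), and heads of the second were taken on day 10, when NaVP ended (4 arrays). On each array the treated RNA was set against RNA of control males that had stayed on normal food for the same number of days and had been moved to fresh vials in parallel. The comparison at each day therefore holds PTZ and NaVP together, and with no arm that had PTZ alone or NaVP alone, their parts cannot be told apart; day 14 differs from day 10 both in the return to normal food and in 4 days of age. Vials began with 30 flies, RNA came from pools of heads, and the series text speaks of biological replicates. Doses remain uncertain: for PTZ the sample labels have 8 mg/ml where the series text has 0.33 mg/ml, and for NaVP they have 0.33 mg/ml where it has 24 mg/ml. These are whole heads, so fewer cells of a type and less RNA per cell cannot be told apart.

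A day 14 array held a value for 11208 to 14421 spots and a day 10 array for 13524 to 19905. Day 10 ratios were the more widely spread: within an array their SD was 0.33 to 0.43 at day 14, against 0.52 to 0.86 at day 10. Precision is limited by the number of arrays. Of the marker genes named on the array, 7 of 7 for neurons, 11 of 12 for photoreceptors and 10 of 11 for the fat body of the head had a value on at least 3 arrays. Of those for the male reproductive tract, which heads should lack, 3 of 6 did, and none of them had a value on all 8. Among all named genes, 88.6% had a value on at least 3 arrays. The medians of the marker lists, treated over control on the log2 scale, were -0.11 at day 14 and 0.18 at day 10 for neurons, -0.10 and -0.01 for photoreceptors, and -0.17 and 0.10 for the fat body; their part in the results below was not tested.

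Every ratio below is the log2 of treated over control RNA on 1 array, centred on the median of that array. Replicates 3 and 4 of each day had the dyes swapped, and their sign was turned. The overall sign rests on reading each deposited value as Cy5 over Cy3, which is likely because the labels put Cy5 in channel 1; the opposite reading would turn every sign in the text. The turning was judged from the deposited values, and every ratio rests on it. Left unturned, the swapped arrays would give day 10 values of -0.03 for Atg4a, 0.07 for Ubi-p63E and 0.20 for ClpP. An estimate is given with the standard error of a linear model that was fitted to all 8 arrays with a dye term. In this model both days share the estimate of a gene's spread, although day 10 ratios were the more widely spread. A standard error therefore does not give the spread of a single day.

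At day 14 Atg4a, the autophagy protease, had log2 ratios of 0.02, 0.15, -0.08 and 0.23 on replicates 1 to 4. At day 10 its ratios were 0.41, 0.68, 0.57 and 0.65. The 4 day 10 arrays were thus all above 0 and all above the 4 day 14 arrays, which lay on both sides of 0. The mean was 0.08 at day 14 (SD 0.13, n = 4), and it was 0.58 at day 10 (SD 0.12, n = 4), which is 1.50 times the control level. The fitted day 14 minus day 10 difference was -0.50 ± 0.18. The means by dye were close: with treated RNA in Cy5 the mean was 0.09 at day 14 and 0.55 at day 10, and with treated RNA in Cy3 it was 0.08 at day 14 and 0.61 at day 10.

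The fitted day 10 values of Atg4a and ClpP were nearer 0 with print-block medians subtracted, and the cause was not tested. Print blocks were inferred here as runs of consecutive rows of the deposited data, and were taken as patches of neighbouring spots. Both Atg4a spots lie in the same block. After turning, the medians of this block lay 0.22, -0.34, 0.58 and 0.36 from the array medians on the 4 day 10 arrays. With block medians subtracted, the Atg4a ratios on these arrays were 0.19, 1.02, -0.01 and 0.30, and the fitted value was 0.38. The day 14 ratios became 0.16, 0.30, -0.10 and 0.22, so after this step the groups overlapped, and the fitted difference was -0.23. The block median thus lay above the array median on 3 of the 4 day 10 arrays, and Atg4a did so on all 4. On replicate 2 the block median lay below the array median, at -0.34, while Atg4a had its highest ratio, 0.68. With block medians subtracted, the 4 day 10 ratios were no longer all above 0.

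At day 14 Ubi-p63E, the polyubiquitin gene, had log2 ratios of -0.24, -0.29, -0.45 and -0.52 on replicates 1 to 4. At day 10 it had -0.64, -0.35 and -0.73 on replicates 1 to 3, while both of its spots had no value on replicate 4. Each of the 7 arrays with a value was below 0, and the ranges of the groups overlapped. With treated RNA in Cy5 the mean was -0.26 at day 14 and -0.49 at day 10. With treated RNA in Cy3 it was -0.49 at day 14, and the only such day 10 array with a value had -0.73. The mean was -0.37 at day 14 (SD 0.13, n = 4), or 1.30-fold lower than in control heads, against -0.57 at day 10 (SD 0.20, n = 3). The fitted values, which allow for the dye, were -0.37 ± 0.12 at day 14 and -0.61 ± 0.15 at day 10, the second being 1.53-fold lower than in control heads. Their difference, 0.24 ± 0.20, was little larger than its standard error, and with arrays scaled to one spread it was -0.04. With block medians subtracted, the ratio was still below 0 on all 7 arrays, from -0.60 to -0.06 at day 14 and from -0.97 to -0.07 at day 10.

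ClpP, the mitochondrial protease subunit, had log2 ratios of -0.71, -0.50, -0.40 and -0.28 on the day 14 replicates 1 to 4. At day 10 it had -0.42, -0.73 and -1.12 on replicates 1, 2 and 4, and no value on replicate 3. As for Ubi-p63E, all 7 arrays with a value were below 0 and the groups overlapped. The mean was -0.47 at day 14 (SD 0.18, n = 4) and -0.76 at day 10 (SD 0.35, n = 3). With treated RNA in Cy5 it was -0.60 at day 14 and -0.57 at day 10. With treated RNA in Cy3 it was -0.34 at day 14, and the only such day 10 array with a value had -1.12. The fitted values were -0.47 ± 0.15 at day 14, or 1.39-fold lower than in control heads, and -0.77 ± 0.19 at day 10, or 1.70-fold lower, with a difference of 0.29 ± 0.24. One array carried much of the day 10 value: without replicate 4, the only day 10 array with ClpP values and treated RNA in Cy3, it was -0.44, and the day 14 minus day 10 difference was -0.03. The medians of its print block lay -0.76, -0.43 and 0.13 from the array medians on these 3 day 10 arrays. With block medians subtracted, ClpP was below 0 on 4 of 4 day 14 arrays and on 2 of 3 day 10 arrays, the exception being replicate 1 at 0.34. The fitted values were then -0.35 at day 14, -0.51 at day 10 and 0.16 for the difference.

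**Figure D1:**
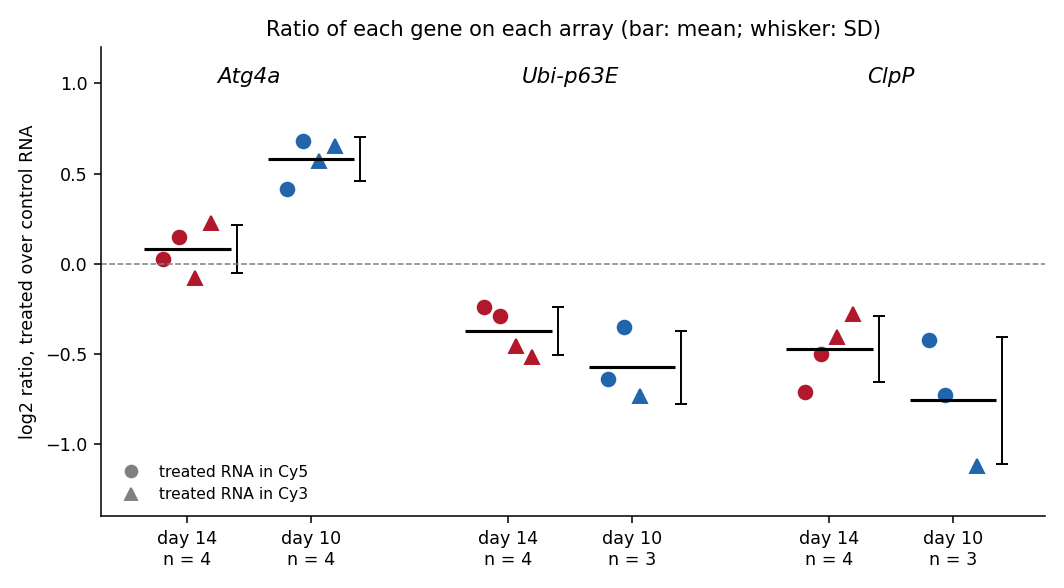
Log2 ratio of treated over control RNA (vertical axis) of Atg4a, Ubi-p63E and ClpP on every array with a value, day 14 left of day 10, with the group mean and its SD. The 4 day 10 arrays of Atg4a lie between 0.41 and 0.68 and its day 14 arrays between -0.08 and 0.23, while every array of Ubi-p63E and ClpP lies below 0.

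In the groups for which these genes were chosen, the deposited values of the single spots mostly changed sign with the dye. Choosing genes by their turned ratios favours this pattern, so it does not show that the swap worked. For Ubi-p63E, the deposited ratio was below 0 for both spots on each of the 4 arrays with treated RNA in Cy5 and above 0 on each of the 3 swapped arrays with a value. The same held for ClpP, from -1.07 to -0.50 in its day 14 spots with treated RNA in Cy5, apart from its first spot on day 14 replicate 4, which was deposited at -0.02. The Atg4a spots were deposited at 0.09 to 0.38 on the day 10 arrays with treated RNA in Cy5, against -1.31 to -0.40 on the swapped ones.

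The 2 spots of a gene were usually close. Over the arrays, they differed by a median of 0.10 log2 units for Atg4a, 0.16 for Ubi-p63E and 0.05 for ClpP, against a median of 0.19 over 31210 pairs of duplicate spots of 6106 genes. The widest gap was in Atg4a on day 10 replicate 4, where the spots gave 1.06 and 0.24; 5.99% of all pairs differed by more. By the first spot alone the fitted day 10 value of Atg4a was 0.73, and by the second alone it was 0.43. The widest gap of ClpP was on day 14 replicate 4, with -0.04 and -0.52, and that of Ubi-p63E on day 14 replicate 1, with -0.04 and -0.44.

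**Figure D2:**
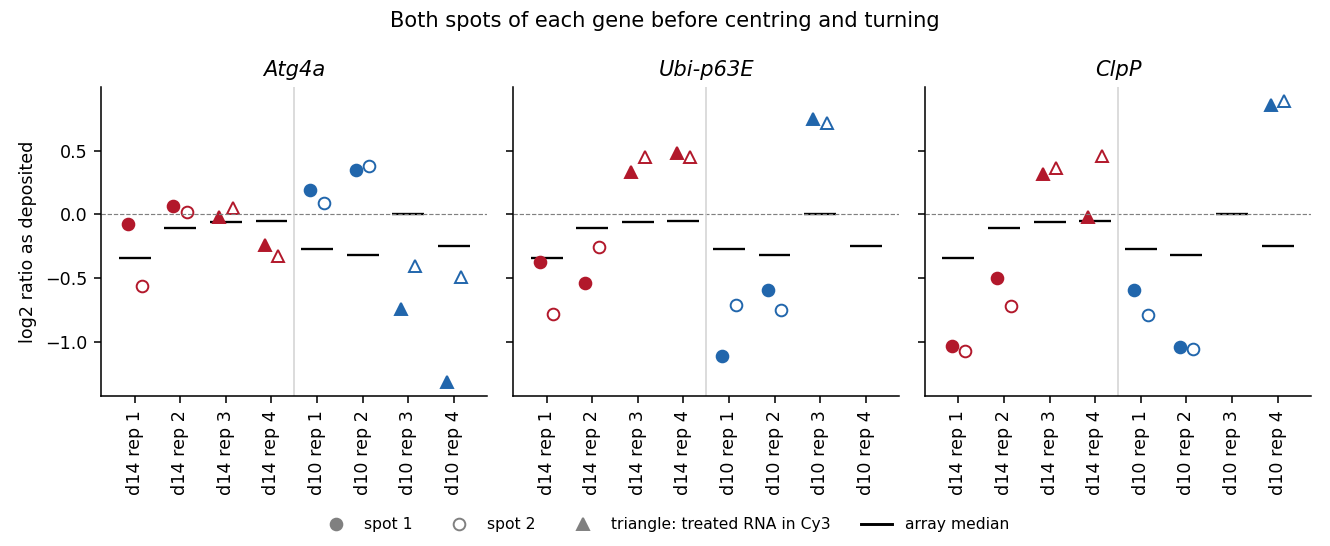
Log2 ratio as deposited (vertical axis), before centring and before the swapped arrays were turned, of both spots of each gene (filled and open) on every array, day 14 left of day 10, with triangles for treated RNA in Cy3, circles for Cy5 and bars for the array medians. The Ubi-p63E and ClpP spots lie below 0 where treated RNA was in Cy5 and above 0 where it was in Cy3, except 1 ClpP spot at -0.02.

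Read against the whole array, the 3 genes lay towards the edges of the distribution, as their choice implies. No feature passed an adjusted p of 0.05 in limma for day 14 (0% of 7529 tested) or for day 10 (0% of 11509). The same held for the day 14 minus day 10 difference (0% of 6419). The smallest adjusted p was 0.435, 0.701 and 0.773 in these 3 comparisons. At day 14, 70 features were called with each day fitted alone and 39 with arrays scaled to one spread. Unadjusted p-values were under 0.05 for 3.98% of the day 14 features, 6.67% of those at day 10 and 6.26% of those in the difference.

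Among the 3172 named genes tested at day 14, 894 had an estimate at least as high as that of Atg4a, 79 had one at least as low as that of Ubi-p63E, and 38 at least as low as that of ClpP. Among the 5232 tested at day 10 the corresponding numbers were 78, 134 and 60. In the difference between the days, 121 of 2711 named genes were at least as far below 0 as Atg4a, and 442 and 328 were at least as far above 0 as Ubi-p63E and ClpP.

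The signs of the arrays can be counted in the same way. Atg4a was above 0 on 4 of 4 day 10 arrays, as was every measured array for 6.39% of the features tested at day 10. Ubi-p63E and ClpP were below 0 on every array with a value at both times, as were 0.545% of the 6419 features tested at both; by single day, 9.62% of features were below 0 on every measured array at day 14 and 6.17% at day 10. Every day 14 array of Atg4a lay below every day 10 array, as for 2.32% of those 6419 features. These patterns are what the genes were chosen for.

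**Figure D3:**
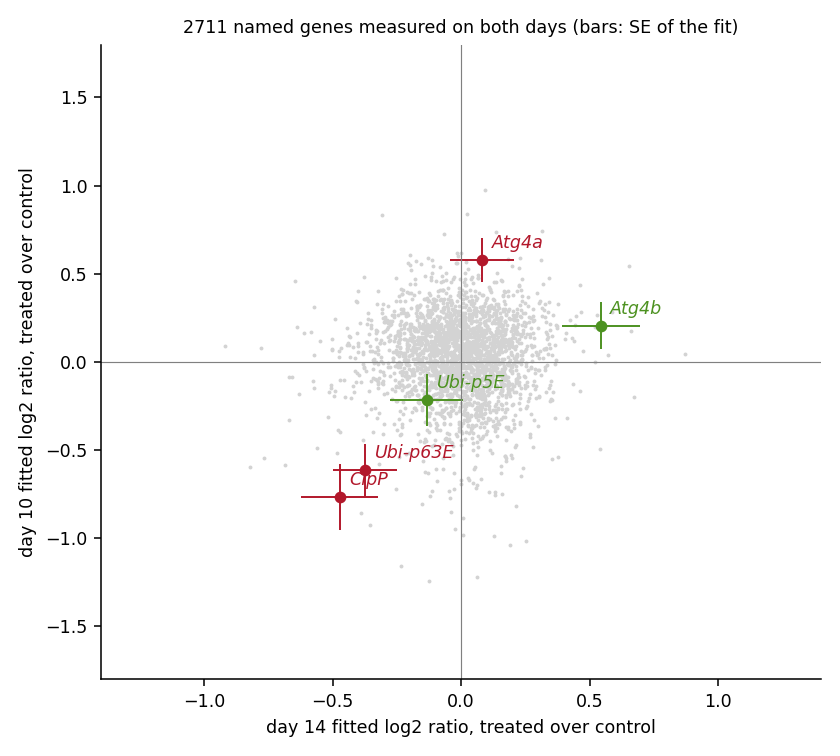
Fitted log2 ratio of treated over control RNA at day 14 (horizontal axis) and at day 10 (vertical axis) for the named genes tested in both (grey), with Atg4a, Ubi-p63E and ClpP in red, Atg4b and Ubi-p5E in green, and bars for the standard error. Atg4a lies near 0.08 at day 14 and 0.58 at day 10, Ubi-p63E near -0.37 and -0.61, and ClpP near -0.47 and -0.77.

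The closest relatives of the 3 genes had other values. Atg4b, the other Atg4 protease, had ratios of 0.78, 0.48 and 0.13 on day 14 replicates 2 to 4 and no value on replicate 1. At day 10 it had 0.55 and 0.35 with treated RNA in Cy5, against 0.01 and -0.08 in Cy3, so it was ordered by dye. The day 14 ratio of 0.78, in Cy5, was likewise above the 2 in Cy3. Its estimate was 0.54 ± 0.15 at day 14 (n = 3, limma adjusted p = 0.882, unadjusted p = 0.00489), 0.21 ± 0.13 at day 10 (adjusted p = 0.729) and 0.34 ± 0.20 for the difference (adjusted p = 0.783). The fitted difference of Atg4b was thus above 0 where that of Atg4a was below 0, and whether the 2 genes differ was not tested.

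Ubi-p5E, the other polyubiquitin gene, was split by dye. Its ratios were 0.10, 0.31, -0.41 and -0.52 at day 14 and 0.01, 0.33, -0.94 and -0.27 at day 10, above 0 on every array with treated RNA in Cy5 and below 0 on every swapped one. The estimates were -0.13 ± 0.14 at day 14 (limma adjusted p = 0.999), -0.22 ± 0.15 at day 10 (adjusted p = 0.734) and 0.08 ± 0.20 for the difference (adjusted p = 0.94). Ubiquitin genes share the repeated unit, so labelled RNA of one can bind the spots of another, and how far it did was not tested.

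ClpX, the ATPase partner of ClpP, had values of -0.54 and 0.61 on the first 2 day 14 arrays only, too few for a test. At day 10 its ratios were 0.92, 1.14, -0.43 and -0.41, again split by dye, with an estimate of 0.31 ± 0.20 (limma adjusted p = 0.734). The genes RpL40 and RpS27A, which encode ubiquitin joined to a ribosomal protein, were not among the named spots and are not analysed here.

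The wider pathways were read from 6 lists of genes. None of their genes was called at an adjusted p under 0.05 in any comparison (limma, 0% of features called in each), so the lists are described by the side of 0 on which their members lay. For all features tested, the median estimate was 0.00 at day 14 with 50.7% of features below 0, 0.04 at day 10 with 43.5% below 0, and -0.03 for the difference with 54.6% below 0.

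In the autophagy machinery, 21 of 35 listed genes were named on the array. Without Atg4a, 8 of 12 tested at day 14 were above 0 (median 0.02) and 11 of 16 tested at day 10 were above 0 (median 0.19), while 7 of 10 were below 0 in the difference (median -0.14). Atg4b at day 14, given above, had the smallest p of that list at that time. Vps15, the regulatory kinase-like subunit of the lipid kinase complex that starts autophagosomes, lay the other way at day 10: its ratios were -0.74, -0.12, -1.09 and -0.52, with an estimate of -0.61 ± 0.17 (limma adjusted p = 0.727). Vamp7, a membrane fusion protein, had -0.26 ± 0.14 at day 14 (adjusted p = 0.999).

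Among lysosomal hydrolases, lysosomal membrane proteins and the proton pump, 7 of 12 genes were below 0 at day 14 (median -0.03), and 12 of 18 were above 0 at day 10 (median 0.07). In the difference, 8 of 12 were below 0 (median -0.07). Cathepsins, the lysosomal cysteine proteases, lay on both sides at day 10, with CtsL1 at 0.41 ± 0.20 and CtsF at -0.40 ± 0.19 (limma adjusted p = 0.727 for each). At day 14 CtsB had -0.25 ± 0.15 and the membrane protein Lamp1 -0.28 ± 0.20 (n = 3; adjusted p = 0.999 for each). For the difference, Ppt1, a lysosomal thioesterase, had -0.30 ± 0.22 (adjusted p = 0.788) and the proton pump accessory protein ATP6AP2 had -0.29 ± 0.22 (adjusted p = 0.803). Single arrays moved several of these: CtsB was at -0.11 without day 14 replicate 1, CtsF at -0.22 without day 10 replicate 1, CtsL1 at 0.24 without day 10 replicate 3 and 0.65 without day 10 replicate 4, and Ppt1 at -0.18 without day 10 replicate 2. The day 10 ratios of ATP6AP2 were split by dye, 0.62 and 0.70 with treated RNA in Cy5 against -0.003 and -0.33 in Cy3.

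On the ubiquitin side, 10 of 26 listed genes for ubiquitin, ubiquitin-like modifiers and the enzymes that activate and conjugate them were named on the array. Without Ubi-p63E, 5 of 6 tested were below 0 at day 14 (median -0.12), 6 of 9 were above 0 at day 10 (median 0.08), and 4 of 6 were below 0 in the difference (median -0.20). Sumo, the small ubiquitin-like modifier, had an estimate of -0.17 ± 0.15 at day 14 (limma adjusted p = 0.999) and 0.31 ± 0.16 at day 10, where its ratios were 0.62, 0.05, 0.55 and 0.04 (adjusted p = 0.727). Its difference was -0.49 ± 0.22 (adjusted p = 0.773), and its day 10 value lay opposite to that of Ubi-p63E. Without replicate 1 of the same day, Sumo was at -0.068 at day 14 and 0.16 at day 10.

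For ubiquitin ligases, 7 of 13 genes were above 0 at day 14 (median 0.00), 11 of 17 were above 0 at day 10 (median 0.10), and 8 of 11 were below 0 in the difference (median -0.09). The genes with the smallest p were APC7, a subunit of the cell-cycle ligase APC/C, at 0.41 ± 0.22 (n = 3, limma adjusted p = 0.727) and ctrip at 0.24 ± 0.14 (adjusted p = 0.729), both at day 10. At day 14 they were the cullin Cul5 at 0.19 ± 0.18 and the HECT ligase Su(dx) at -0.16 ± 0.19 (adjusted p = 0.999 for each). In the difference they were KLHL18 at -0.49 ± 0.34 (adjusted p = 0.786) and the HECT ligase Nedd4 at -0.31 ± 0.31 (adjusted p = 0.815). These values leaned on single arrays: KLHL18 was at -0.069 without day 10 replicate 3, Nedd4 at -0.023 without day 14 replicate 2 and -0.059 without day 10 replicate 1, and ctrip at 0.12 without day 10 replicate 1. The day 10 ratios of Nedd4 were split by dye, 1.23 and 0.74 with treated RNA in Cy5 against -0.46 and -0.47 in Cy3. Those of APC7 were too, 1.30 and 0.76 in Cy5 against -0.20 on the only Cy3 array with a value.

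Deubiquitinases, which remove ubiquitin from proteins, together with the p97 unfolding machine split evenly at day 14, with 5 of 10 below 0 (median -0.03). At day 10, 12 of 18 were above 0 (median 0.15), and in the difference 5 of 7 were below 0 (median -0.09). The proteasome-bound deubiquitinase Usp14 had -0.20 ± 0.14 at day 14 (limma adjusted p = 0.999) and -0.39 ± 0.21 in the difference (adjusted p = 0.773). Uch had -0.26 ± 0.18 at day 14 (adjusted p = 0.999). At day 10 the genes with the smallest p were Usp20-33 at 0.30 ± 0.18 and Usp8 at 0.24 ± 0.14 (adjusted p = 0.729 for each), and faf had 0.34 ± 0.32 in the difference (adjusted p = 0.814). Without day 14 replicate 1, Usp14 was at -0.066 at day 14 and -0.26 in the difference, and Uch was at -0.13. Without day 10 replicate 1, Usp20-33 was at 0.18. The day 10 ratios of Usp14 were split by dye, 0.86 and 0.60 with treated RNA in Cy5 against -0.24 and -0.46 in Cy3. Those of Usp8 were also ordered by dye, 0.58 and 0.48 in Cy5 against 0.01 and -0.11 in Cy3.

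Mitochondrial proteases, import factors and quality control genes, the company of ClpP, were near 0 at day 10. Without ClpP, 11 of 18 were below 0 at day 14 (median -0.06), 12 of 23 were below 0 at day 10 (median 0.00), and 13 of 18 were below 0 in the difference (median -0.08). Hsc70-5, the mitochondrial Hsp70 chaperone, had -0.34 ± 0.16 at day 14 and was below 0 on 4 of 4 arrays (limma adjusted p = 0.999); without replicate 3 it was at -0.21. HtrA2, a protease of the space between the mitochondrial membranes, had -0.53 ± 0.25 at day 10 (n = 3, adjusted p = 0.727), with widely spread ratios of -1.53, -0.51 and -0.04. In the difference, the import chaperone Tim10 had -0.42 ± 0.21 (adjusted p = 0.773) and the inner-membrane scaffold prohibitin Phb2 had -0.30 ± 0.18 (adjusted p = 0.783). The day 10 ratios of Phb2 were split by dye, 0.365 and 0.142 with treated RNA in Cy5 against -0.0865 and -0.1915 in Cy3. Those of Tim10 were also ordered by dye, 0.52 and 0.47 in Cy5 against 0.07 and -0.04 in Cy3.

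**Figure D4:**
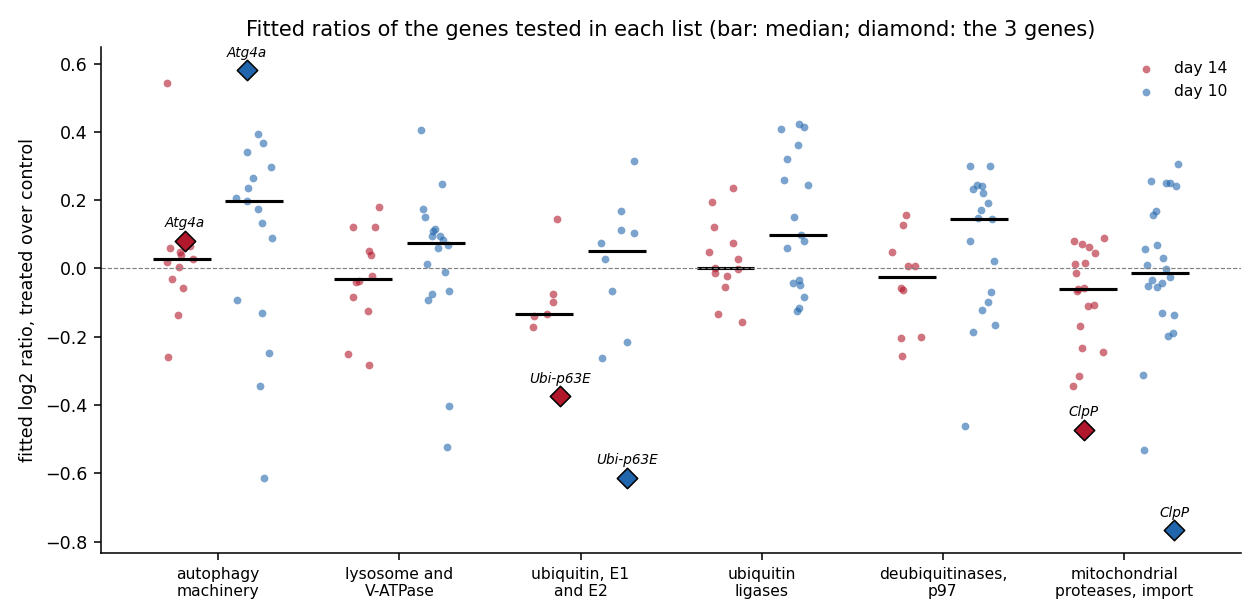
Fitted log2 ratios (vertical axis) of the genes tested in each pathway list at day 14 (left of each pair) and day 10 (right), with bars for the list medians and diamonds for Atg4a, Ubi-p63E and ClpP. At day 10 the autophagy genes spread from -0.61 to 0.58, the upper end being Atg4a, and the lower ends of the ubiquitin enzyme and mitochondrial lists are Ubi-p63E at -0.61 and ClpP at -0.77.

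Across the arrays the 3 genes did not move together. Pearson's r of the ratios was -0.44 between Atg4a and Ubi-p63E (7 arrays), -0.58 between Atg4a and ClpP (7 arrays) and -0.71 between Ubi-p63E and ClpP (6 arrays). Points in such a comparison share the array, its dye orientation and its slide pattern, so these values describe the arrays. Ubi-p63E and ClpP, both below 0 throughout, thus had opposite orders: on day 14 ClpP was lowest on replicate 1, where Ubi-p63E was nearest 0.

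The genes with ratios most like those of Atg4a over the 8 arrays, among 1481 genes with a value on every array, were CG3604 (r = 0.96), CG3036 (r = 0.95), ND-15, a subunit of respiratory complex I (r = 0.88), CG12016 (r = 0.88) and CG7966 (r = 0.87). CG3604 had means of -0.21 at day 14 and 0.40 at day 10, and CG3036 had -0.23 and 0.39. Likeness by correlation leaves the level aside: CG7966 had means of -0.67 at day 14 and -0.09 at day 10.

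For Ubi-p63E, over 7 arrays and 1482 genes, the genes most alike were senju (r = 0.94), the proteasome ubiquitin receptor Rpn13 (r = 0.92), CG31639 (r = 0.92), the oligosaccharyltransferase subunit Dad1 (r = 0.91) and CG12926 (r = 0.91). Of these CG31639 was also nearest in level, with means of -0.24 at day 14 and -0.70 at day 10 on those arrays and a root mean square distance of 0.163 log2 units from Ubi-p63E.

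For ClpP, over its 7 arrays, they were Not1, the scaffold of the CCR4-NOT deadenylase (r = 0.99), Lon, another ATP-dependent mitochondrial protease (r = 0.93), CG11983 (r = 0.92), CG11180 (r = 0.91) and CG42557 (r = 0.88). On the arrays where ClpP had a value, Lon had means of -0.11 at day 14 and -0.26 at day 10, and Not1 had -0.04 and -0.32. Each was nearer 0 than those of ClpP. On day 10 replicate 3, where ClpP had no value, Lon was at 0.57 and Not1 at 0.47. Over all day 10 arrays their means were -0.05 for Lon and -0.12 for Not1.

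**Figure D5:**
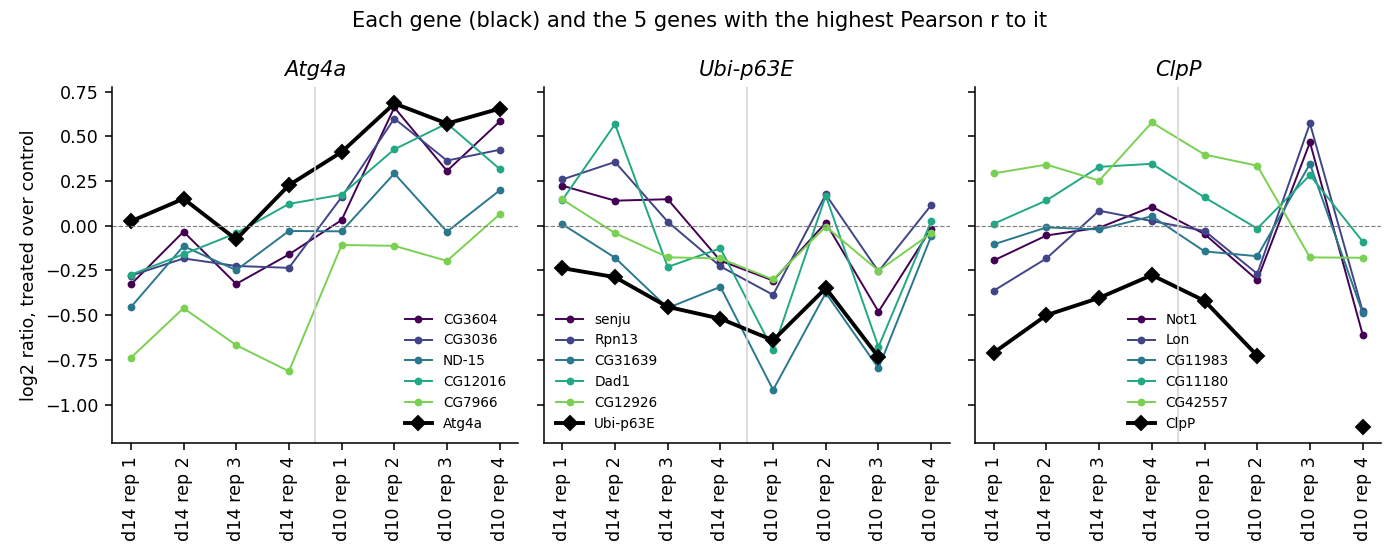
Log2 ratio of treated over control RNA (vertical axis) on each array (horizontal axis, day 14 left of day 10) for each of the 3 genes and the 5 genes most like it by Pearson's r. CG3604 and CG3036 run parallel to Atg4a at lower values. On the arrays where ClpP has a value, Lon and Not1 run parallel to it closer to 0, and on day 10 replicate 3, where it has none, they lie above 0.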

How the data were processed

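The authors, per the series text and the labels' protocols, scanned 2-colour cDNA arrays, quantified them with GenePix Pro 6.0 and normalised ratios with Acuity 4.0, ignoring raw intensities below 100 and keeping spots with under 3 percent saturated pixels, an R2 of at least 0.6 and a signal-to-noise ratio of at least 3. The deposited values are log2 ratios, judged from the values; 2 capped at 16.6 were left out. Deposited array medians ran from -0.34 to 0.00, so arrays were centred here. Block medians of named and unnamed spots had r from 0.28 to 0.84 between arrays of opposite orientation, with 16 of 16 pairs above 0. The deposited swapped arrays were therefore judged unturned, and every ratio given here rests on this judgement. Deposited spot values also mostly correlated above 0 between such arrays, at 0.14 to 0.43 within day 10 and -0.02 to 0.28 within day 14. Turning reverses the sign of these correlations, so arrays of opposite dye then mostly ran against each other. The source of this shared signal was not tested.

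Of 27648 rows, 15116 named 1 gene, 102 several and 12430 none; names came from the platform annotation, and 14894 matched the RefSeq table of Release 6 plus ISO1 MT. Spots of a gene were averaged. limma 3.58.1 in R 4.3.3 fitted both groups with a gene-wise dye term to features with at least 3 arrays per group compared, with Benjamini-Hochberg adjustment over all features; the fit was tested on simulated data. Genes named were the 3 genes, their relatives, the 2 genes of each list with the smallest p per comparison and the 5 most correlated genes. The members and lists were chosen with earlier results of these data known. p-values measure only the spread between these arrays.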

Additional observations from a re-analysis of the deposited data

Results flagged for a closer look

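Hsc70-5, the mitochondrial Hsp70 chaperone, had a log2 ratio of -0.62 on day 14 replicate 3, far below the other 3 day 14 arrays, which lay between -0.27 and -0.23. The ligase gene ctrip had 0.57 on day 10 replicate 1, far above the other 3 day 10 arrays at 0.10 to 0.16. These are 2 of 66 groups of 4 arrays looked at, and chance sets about 1 in 20 groups apart in this way.

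CG3036 and CG3604, 2 of the genes most like Atg4a, were below 0 on every day 14 array and above 0 on every day 10 array. Their fitted day 14 minus day 10 differences were -0.62 for CG3036 and -0.61 for CG3604. Neither difference passed limma's test (adjusted p = 0.773 for each), and both genes were picked for their likeness to Atg4a, which bears on the direction.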

How the results depend on the processing

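Called features (limma, adjusted) numbered 0 for each day and for the difference, with 300 at day 14, 768 at day 10 and 402 for the difference at an unadjusted p under 0.05, and from 0 to 0 when single arrays were left out. Day 14 gave 70 calls (18 higher, 52 lower) with each day fitted alone and 39 (4 higher, 35 lower) with arrays scaled to one spread. Day 10 gave 304 (264 higher, 40 lower) with swapped arrays not turned. In that setting 28.6% of day 10 features had an unadjusted limma p under 0.05, against 6.67% with the arrays turned. Leaving swapped arrays unturned moves most values by construction: Atg4a was -0.033 at day 10 and 0.039 in the difference, Ubi-p63E 0.11 at day 14, 0.072 at day 10 and 0.041 for their difference, and ClpP -0.13 at day 14, 0.20 at day 10 and -0.33 for their difference. It also turned Usp14 (0.27), CtsB (0.084), Hsc70-5 (0.10), Cul5 (-0.24) and Ubi-p5E (0.33) at day 14, Vps15 (0.19) and Ubi-p5E (0.39) at day 10, and in the difference Atg4b (-0.073), Ppt1 (0.017), KLHL18 (0.72) and Ubi-p5E (-0.053). Scaling gave Ubi-p63E -0.53 at day 14 and -0.043 in the difference, Atg4a -0.37 and Ubi-p5E -0.0092 in the difference. Print-block medians gave Atg4a 0.38 at day 10 and -0.23 in the difference, and ClpP -0.51 and 0.16; the single spots of Atg4a, an alternative chosen after seeing the data, gave 0.73 and 0.43 at day 10. Complete rows only gave Su(dx) 0.024 at day 14 and Usp20-33 -0.044 at day 10. The cause of these moves was not tested. Of the alternative values of the other named genes, 588 kept their direction and their side of the threshold and 15 changed direction.

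With single arrays left out, Atg4a ran from 0.03 to 0.15 at day 14, from 0.53 to 0.64 at day 10 and from -0.56 to -0.43 for the difference; Ubi-p63E from -0.39 to -0.36, -0.69 to -0.54 and 0.17 to 0.31; and ClpP from -0.57 to -0.36, -0.92 to -0.44 and -0.032 to 0.45, the lowest difference being without day 10 replicate 4. The Ubi-p5E difference ran from -0.061 without day 10 replicate 3 to 0.21 without day 10 replicate 4. Same-numbered arrays of the 2 days, which share their dye orientation, correlated at 0.06, 0.42, 0.39 and 0.10 in their deviations from the group mean. After the dye term these correlations were -0.39, -0.14, -0.37 and -0.33. Not every array correlated best with its own number, and the numbers were not taken to pair the arrays. With the replicate block the differences were -0.50 for Atg4a, 0.25 for Ubi-p63E and 0.26 for ClpP, with 0 calls.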

Other observations

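Besides Ubi-p63E and ClpP, 14 named genes were below 0 on every array with a value at both days, and 11 were above 0. They were found after their values were seen, and with the unnamed spots they are among the 0.545% and 0.452% of features tested at both times that did so. The lower set held the P450 gene Cyp313a1, with fitted log2 ratios of -0.82 ± 0.13 at day 14 and -0.60 ± 0.14 at day 10, and the head fat body genes Cyp4d21 (-0.77 ± 0.18 and -0.54 ± 0.20) and sxe2 (-0.67 ± 0.13 and -0.33 ± 0.16). The fat body list as a whole, with Cyp4d21 and sxe2 included, did not share this. At day 10, 6 of 9 tested were above 0 (list median 0.10), such as Fbp2 at 0.45 ± 0.20. At day 14, 5 of 7, again with Cyp4d21 and sxe2, were below 0 (list median -0.17). By the sum of both days, ClpP was in place 4 and Ubi-p63E in place 7 of these 16 genes. The higher set held Rab18, a small GTPase of membrane traffic (0.29 and 0.39), the threonine protease Tasp1 (0.23 and 0.43) and the Integrator subunit IntS2 (0.25 and 0.28). None of the 14 and 11 other genes passed an adjusted p of 0.05 in limma.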
